A study of Homo sapiens with 6 samples.

Results

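The 8 subunits of the INO80 chromatin remodelling complex in a dual-guide knockout screen were Ino80, Ino80b, Ino80c, Actr5, Actr8, Actl6a, Nfrkb and Uchl5. They were chosen by name, as every guide pair in which either guide carries one of these symbols. They are 8 of the 459 genes of the library, and 27470 of its 863546 guide pairs (3.18%) hold at least 1 of their guides. Among these pairs, 887 join a subunit guide to a non-targeting guide, 194 join guides of 2 different subunits and 26 join 2 guides of the same subunit.

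The cells were eHAP iCas9-cl#6, a p53 null human line derived from a haploid leukaemia line, in which doxycycline switches on Cas9; all 3 groups share this genotype and come from this line alone. Genomic DNA was the template for sequencing the guide pairs, so a count says how many reads carried a pair, and no RNA or protein was measured. There were 3 groups of 2 libraries: day 0, day 14 without irradiation after 12 population doublings, and day 15 with X-rays of 0.6 Gy given on the day after each split, after 10 population doublings. The labels name this dose by different lethal-dose levels in different fields. The irradiated cells thus differ from the day 14 cells in dose, in days and in doublings, and these cannot be told apart. The labels do not say whether replicates came from separate cultures, so p-values measure the spread between these libraries, which may be technical. The gene symbols are written in mouse style although the cells are human.

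INO80 is an ATP-driven machine that slides and spaces nucleosomes and is linked to turnover of the histone variant H2A.Z. Its Ino80 subunit is the ATPase and the scaffold on which an actin-related protein module and a nucleosome-gripping module assemble. It is known for roles at stalled replication forks, at broken DNA ends and at promoters, so loss of a subunit can slow growth or alter survival after DNA damage.

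Libraries held between 61185707 and 86587125 reads. Guide pairs with no reads made up 4.72% and 1.93% of all pairs in the day 0 libraries, 54.1% and 5.62% in day 14 replicates 1 and 2, and 7.62% and 49.4% in irradiated replicates 1 and 2. Among pairs with a subunit guide the shares were 8.95% and 6.88%, then 59.4% and 11.05%, then 11.8% and 53.4%. Day 14 replicate 1 and irradiated replicate 2 are called the sparse libraries here. Day 0 replicate 1 stood apart in another way: 264 of 927 guides at position 2 of the construct were lower than in day 0 replicate 2 by more than 0.4 on a log2 scale, against 2 of 922 at position 1. That limit was chosen after the values were seen. Nfrkb guides 3 and 4 were among the 264, and no other of the 14 subunit guides tested at position 2 was.

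The guides were unequally represented. Of the 32 subunit guides, 27 had a mean of at least 2000 reads per library and were tested. The 5 others were Ino80 guide 1 with a mean of 499 reads, Ino80 guide 2 with 732, Actl6a guide 1 with 115, Ino80c guide 4 with 339 and Ino80b guide 3 with 0.83. Guides 1 and 2 stood at position 1 and guides 3 and 4 at position 2. Position 2 therefore gave 99.5% of the reads of Ino80, and its guide 3 alone gave 75.9%. For Actl6a, position 2 gave 86.8%, while for the 6 other subunits its share lay between 39.5% and 59.2%.

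To ask what the loss of 1 subunit alone did, the reads of each subunit with non-targeting partners were summed and each library was scaled to its constructs with 2 non-targeting guides. No subunit passed the adjusted threshold of 0.05 in any comparison (edgeR quasi-likelihood test, Benjamini-Hochberg over 459 genes). The same was true of all 459 genes, of which 0% were called on day 14 against day 0, 0% in irradiated against day 0 and 0% in irradiated against day 14. Unadjusted p was under 0.05 for 18, 12 and 13 genes, of which 1, 0 and 3 were subunits, and DESeq2 also called 0 genes, with 21, 14 and 12 at that unadjusted level. The subunits with the smallest p were Nfrkb, higher at day 14, and Actr5, Ino80 and Ino80b, which were lower in the irradiated libraries than at day 14. The 95% interval of a subunit's log2 change reached a median of 0.48 to either side, against 0.40 for all genes.

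Ino80, the ATPase (human INO80, chromosome 15 from 40978880 to 41116280 in RefSeq GRCh38.p14, within which the antisense gene INO80-AS1 also lies), had scaled counts of 5869 and 5420 at day 0. They were 6446 and 5616 at day 14 and 4941 and 3603 after irradiation. Both irradiated libraries lay below the 4 others. The log2 change was 0.10 ± 0.22 (SE) on day 14 against day 0, -0.40 in irradiated against day 0 and -0.50 in irradiated against day 14, where the 95% interval ran from -0.96 to -0.04 (rank 10 of 459 by p, edgeR adjusted p = 0.965). Without both sparse libraries the last value was -0.18. The constructs with the Ino80 guide at position 1 alone, which hold few of its reads, gave -0.36, 0.32 and 0.68 in the 3 comparisons.

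Ino80b, a small subunit that stimulates the ATPase (human INO80B, chromosome 2 from 74455087 to 74457944, overlapped by the read-through gene INO80B-WBP1), had 3222 and 2931 scaled counts at day 0, 5245 and 3017 at day 14, and 2618 and 3073 after irradiation. Day 14 replicate 1, a sparse library, lay well above the 5 others. The change in irradiated against day 14 was -0.54 ± 0.26 (edgeR adjusted p = 0.965), and it was -0.08 without day 14 replicate 1. On day 14 against day 0 the change was 0.42, and -0.03 without that library.

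Ino80c and Actr5 form the module that grips the nucleosome. Ino80c (human INO80C, chromosome 18 from 35468333 to 35497960) had 6140 and 5836 scaled counts at day 0, 2802 and 5851 at day 14, and 6073 and 3805 after irradiation. The 2 low values are those of the sparse libraries, and the 4 others lay within 5836 to 6140. Its change on day 14 against day 0 was -0.47 ± 0.29, rank 3 of the 459 genes from the lowest. Without day 14 replicate 1 it was -0.03, and without day 14 replicate 2 it was -1.10 and passed the threshold (edgeR adjusted p = 0.0451), as did 4.58% of all genes in that fit.

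Actr5 (human ACTR5, chromosome 20 from 38748460 to 38772520), the actin-related partner of Ino80c, had 9189 and 8394 scaled counts at day 0. It had 11842 and 8820 at day 14 and 7867 and 7192 after irradiation. Both irradiated values lay below the 4 others. Its change in irradiated against day 14 was -0.46 ± 0.18, with a 95% interval from -0.84 to -0.08 and rank 4 of the 459 genes by p (edgeR adjusted p = 0.965). The value without both sparse libraries was -0.16.

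Actr8 and Actl6a belong to the actin-related module that contacts linker DNA, and Actl6a is also a subunit of the TIP60 and SWI/SNF complexes. Actr8 (human ACTR8, chromosome 3 from 53858992 to 53882152, overlapping IL17RB) had 5469 and 5130 scaled counts at day 0, 5498 and 5449 at day 14, and 4571 and 6043 after irradiation. Its 3 log2 changes were 0.05, 0.00 and -0.04, and the groups overlapped in all 3 comparisons. Actl6a (human ACTL6A, chromosome 3 from 179562926 to 179588407, overlapping MRPL47) had 4200 and 3462 at day 0, 2993 and 3486 at day 14, and 4090 and 3178 after irradiation. The groups overlapped here too, with changes of -0.24, -0.08 and 0.17.

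Nfrkb and Uchl5 are subunits found in animals, and Nfrkb holds the deubiquitinase Uchl5 in an inactive state within the complex. Nfrkb (human NFRKB, chromosome 11 from 129863636 to 129895578) had 6149 and 8108 scaled counts at day 0, 14541 and 8143 at day 14, and 8408 and 11105 after irradiation. All 4 later values exceeded both day 0 values, day 14 replicate 2 only narrowly. Day 0 replicate 1, at 6149, was the library in which Nfrkb guides 3 and 4 were low. Its unscaled reads in day 0 replicates 1 and 2 were 2216 and 3939 at position 2, and 4750 and 5656 at position 1. The change on day 14 against day 0, 0.67 ± 0.23 with a 95% interval from 0.19 to 1.15, was the highest of the 459 genes and had the smallest p of them (edgeR adjusted p = 0.817). It was 0.19 without day 14 replicate 1 and 1.03 without day 14 replicate 2. In irradiated against day 0 the change was 0.45 ± 0.23.

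Uchl5 (human UCHL5, chromosome 1 from 193012254 to 193060076, overlapping RO60) also works in the proteasome, where it trims ubiquitin chains. Its scaled counts were 6615 and 5450 at day 0, 5150 and 5372 at day 14, and 5668 and 3698 after irradiation. Both day 14 values lay below both day 0 values, whereas the irradiated values overlapped them. The changes were -0.20, -0.37 and -0.17, each with an SE of 0.23.

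As a group, the subunits lay on both sides of 0. On day 14 against day 0, 3 of 8 were below 0 with a median of 0.07, against 36.6% of all genes with a median of 0.06. In irradiated against day 0, 6 of 8 were below 0 with a median of -0.17 against 0.01, and in irradiated against day 14, 6 of 8 with a median of -0.19 against -0.08. Of all genes, 47.1% and 64.3% were below 0 there. Scaling by TMM, a trimmed mean over genes, put 5 of 8 below 0 in the last comparison, with a median of -0.13 against -0.02 for all genes. There it was 4 of 8 with a median of -0.06 without both sparse libraries, and 3 of 8 with a median of 0.06 with the subunit guide at position 1 alone. On day 14 against day 0, 5 of 8 were below 0 without day 14 replicate 1, with a median of -0.02, and with position 1 alone, with a median of -0.10. The groups share libraries between comparisons, so the 3 sets of values are not independent.

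**Figure D1:**
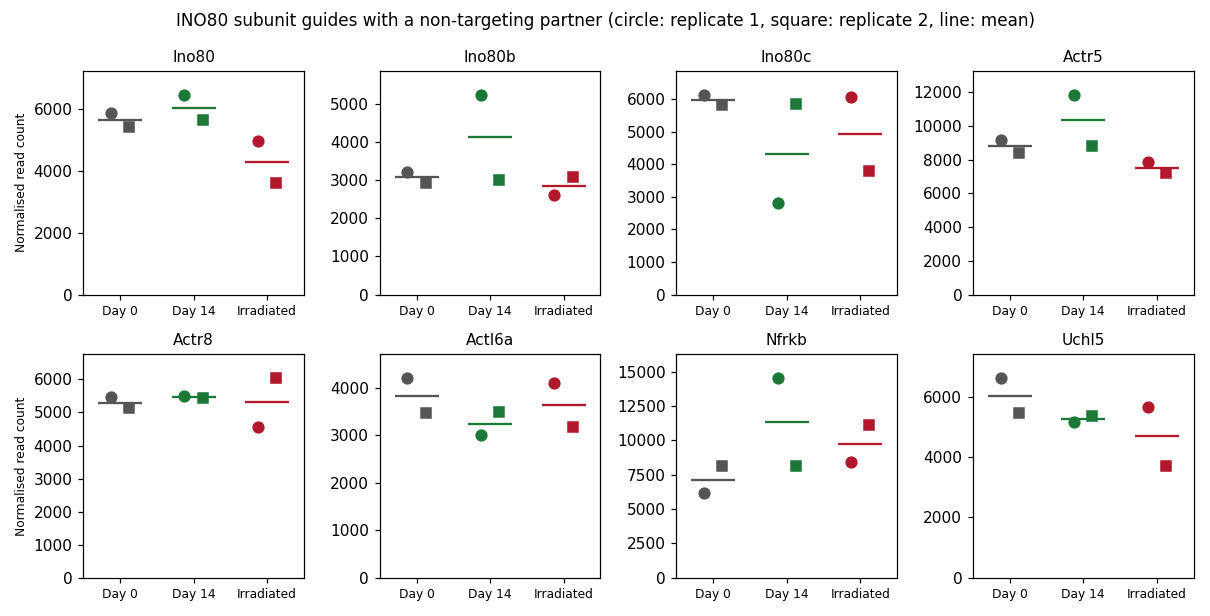
Scaled read count of each subunit with non-targeting partners (vertical axis, from 0) in the day 0, day 14 and irradiated libraries; circles are replicate 1, squares replicate 2 and lines the group mean. Nfrkb reached 14541 in day 14 replicate 1, while Ino80c had its lowest value, 2802, in that library.

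Few constructs carried these sums in the sparse libraries. Between 93 and 122 constructs per subunit had a non-targeting partner. In day 14 replicate 1, only 23 (Ino80b and Actl6a) to 57 (Actr5) of them had reads, and the single largest construct gave between 9.42% (Actr5) and 24.9% (Actl6a) of a subunit's reads. For Nfrkb in that library, 55 of 122 constructs had reads and 1 construct gave 1152 of 10746 reads. In irradiated replicate 2, between 24 (Ino80b) and 58 (Actr5) constructs had reads. The part of this sparseness in the single-knockout values was tested only by leaving libraries out, as given above.

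Summing each subunit over all partner genes uses far more reads, since non-targeting partners supply only 1.94% (Actl6a) to 3.01% (Nfrkb) of a subunit's total. These totals are given as CPM, counts scaled to a common library size after TMM. In irradiated against day 14 the subunits' changes on that scale lay between -0.04 and 0.02, against -0.54 and 0.19 with non-targeting partners. Most changes against day 0 were also smaller than with non-targeting partners. That did not hold for Actr8, nor for Ino80 on day 14, at -0.19 against 0.10. None of the 8 passed the threshold in any comparison (edgeR), against 0%, 0% and 0% of all 459 genes. Unadjusted p was under 0.05 for 18, 18 and 12 genes, among them 1, 2 and 0 subunits. DESeq2 called 2, 2 and 1 genes, none of them a subunit, with 28, 30 and 16 at that unadjusted level. The median half-width of the 95% interval was 0.16 for the subunits and 0.14 for all genes.

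Ino80 had 1942 and 1729 CPM at day 0, 1582 and 1644 at day 14, and 1623 and 1611 after irradiation. All 4 later libraries lay below both day 0 libraries. Its changes were -0.19 ± 0.07 on day 14 against day 0 (edgeR adjusted p = 0.552) and -0.18 ± 0.07 in irradiated against day 0 (edgeR adjusted p = 0.625), each the fifth lowest of the 459 genes. Position 2 gave 99.5% of the Ino80 reads. There the guides outside the 264 low ones were higher in day 0 replicate 1 than in replicate 2, by a median log2 difference of 0.22. Totals were scaled over both positions together, so this enters the day 0 level of Ino80. Both Ino80 changes were -0.10 without day 0 replicate 1. When day 0 replicate 2 was left out they were -0.27 and -0.26 and passed the threshold (edgeR adjusted p = 0.00315 and 0.00338), in fits that called 35.7% and 33.6% of all genes.

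For irradiated against day 14 libraries, the Ino80 change over all partners was 0.00, with a 95% interval from -0.16 to 0.17. For Actr5 the same comparison gave 0.02 (interval -0.11 to 0.16), with 2605 and 2379 CPM at day 0, 2318 and 2412 at day 14, and 2405 and 2400 after irradiation. For Ino80b it gave -0.02 (interval -0.18 to 0.14). With non-targeting partners these 3 subunits had values of -0.50, -0.46 and -0.54. Without both sparse libraries those values were -0.18, -0.16 and -0.20, and without day 14 replicate 1 that of Ino80b was -0.08.

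The difference between partner classes was tested itself, after the values were seen, as the log2 ratio of reads with non-targeting to reads with gene partners in each library. The 3 subunits named were picked by their non-targeting values, which enter the ratio, so it restates them and is not separate evidence. Its change from day 14 to irradiated libraries was -0.47 ± 0.17 for Actr5 (limma adjusted p = 0.963) and -0.52 ± 0.20 for Ino80 (limma adjusted p = 0.963). For Ino80b it was -0.48 ± 0.30. Leaving out both sparse libraries gave -0.16, -0.17 and -0.24. With 1 library left out at a time the ranges were -0.72 to -0.23 for Actr5, -0.75 to -0.30 for Ino80 and -0.87 to -0.10 for Ino80b. The ends nearest 0 came without day 14 replicate 1 for Actr5 and Ino80b and without irradiated replicate 2 for Ino80, and none of the 3 passed the threshold in these fits. Over all 459 genes limma called 0% in each comparison, and 1, 4 and 11 genes had an unadjusted p under 0.05.

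Nfrkb was the one subunit above 0 over all partners against day 0. It had 1701 and 2126 CPM at day 0, 2212 and 2118 at day 14, and 2160 and 2187 after irradiation. Day 0 replicate 1 alone was low, and day 0 replicate 2 lay between the 2 day 14 values. The changes against day 0 were 0.18 ± 0.10 at both times, and 0.03 at both times without day 0 replicate 1. Leaving out day 0 replicate 2 instead, so that only the low library remained at day 0, gave 0.35 at both times.

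Uchl5 had 1703 and 1604 CPM at day 0, 1556 and 1494 at day 14, and 1523 and 1433 after irradiation. Both later groups lay wholly below day 0. Its changes were -0.12 ± 0.06 on day 14 against day 0 and -0.16 ± 0.06 in irradiated against day 0 (edgeR adjusted p = 0.625). The second was -0.12 without day 0 replicate 1 and -0.20 without day 0 replicate 2.

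The 5 other subunits were closer to their day 0 level. Their changes at day 14 and in irradiated libraries were -0.08 and -0.06 for Ino80c, -0.08 and -0.05 for Actr5, and -0.07 and -0.07 for Actr8. They were -0.02 and -0.04 for Ino80b and -0.00 and -0.01 for Actl6a. Actr5 was at -0.14 on day 14 when day 0 replicate 2 was left out. Actl6a, which is needed by several remodelling complexes, had 1327 and 1205 CPM at day 0, 1296 and 1235 at day 14, and 1224 and 1283 after irradiation. Its interval on day 14 against day 0 ran from -0.17 to 0.17. Counted together, 7 of 8 subunits were below 0 in both comparisons with day 0, against 47.9% and 52.1% of all genes. The subunit medians were -0.07 and -0.06, against 0.01 and 0.00 for all genes. The counts were 5 and 4 of 8 without day 0 replicate 1, with medians of -0.02 and -0.01. With position 1 alone, which gives no value for Ino80, 3 of 7 were below 0 in both, with medians of 0.03 and 0.01. Scaling by the constructs with 2 non-targeting guides instead moved the median of all genes to 0.08, -0.01 and -0.08 in the 3 comparisons. It put 5, 7 and 8 of 8 subunits below 0, with medians of -0.01, -0.07 and -0.07, and 21.1%, 54.2% and 92.8% of all genes.

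**Figure D2:**
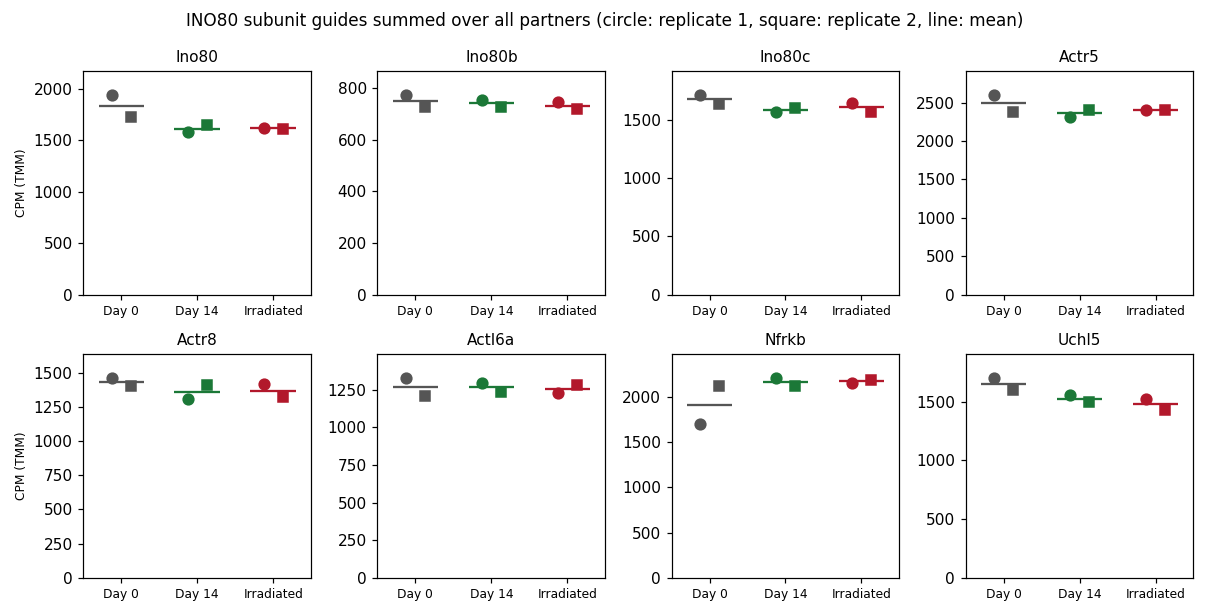
Level (CPM after TMM scaling) of each subunit summed over all partners (vertical axis, from 0), by group; circles are replicate 1, squares replicate 2 and lines the group mean. Ino80 and Uchl5 lie below both day 0 values in all 4 later libraries, and the low Nfrkb value is day 0 replicate 1 at 1701.

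**Figure D3:**
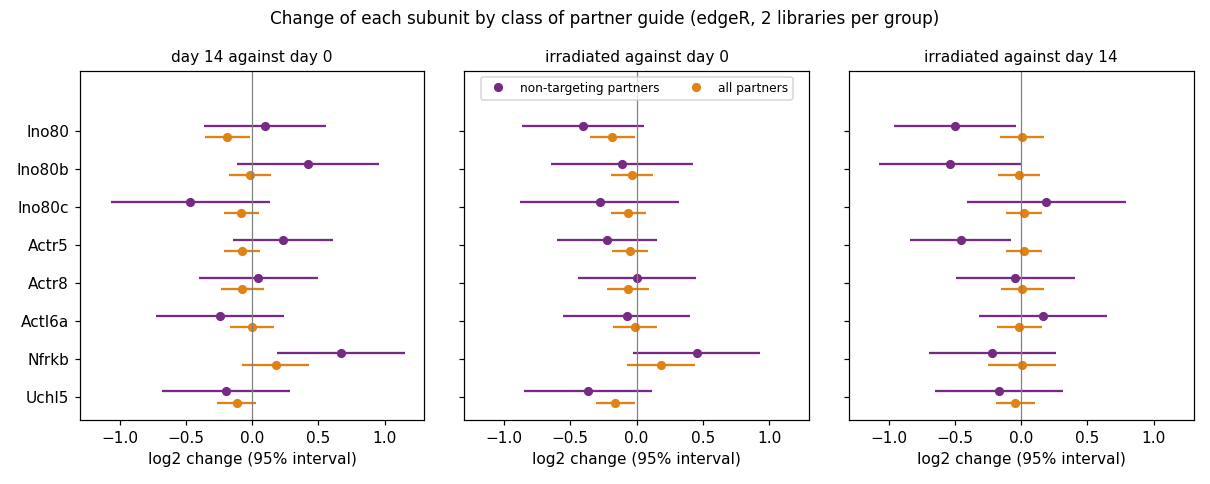
Log2 change (horizontal axis) of the 8 subunits with its 95% interval in the 3 comparisons, for non-targeting partners (purple) and all partners (orange). Intervals over all partners are shorter, and in irradiated against day 14 Actr5 lies at -0.46 in purple and at 0.02 in orange.

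The guides of a subunit target the same gene, so they are not replicates of a condition, and each was tested on its own, summed over all partners. None of the 27 tested guides passed the threshold (edgeR, Benjamini-Hochberg over 1849 guides), against 0%, 0% and 0% of all guides. Unadjusted p was under 0.05 for 79, 57 and 83 guides, among them 2, 2 and 1 subunit guides. DESeq2 called 24, 27 and 28 guides, with 139, 93 and 139 at that unadjusted level.

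Uchl5 guide 3 was the lowest of the subunit guides. It had 1005 and 966 CPM, within its position, at day 0, 706 and 726 at day 14, and 701 and 555 after irradiation. All 4 later values lay below both day 0 values. The irradiated values lay below the day 14 values, but replicate 1 did so only narrowly, at 701 against 706. The 555 of guide 3 came from irradiated replicate 2, a sparse library, which also enters its change against day 0. Its change was -0.46 ± 0.12 on day 14 against day 0 (edgeR adjusted p = 0.646) and -0.65 ± 0.12 in irradiated against day 0 (edgeR adjusted p = 0.386, rank 9 of 1849 by p). The second was the one subunit result that DESeq2 called (adjusted p = 0.000314), with 1.46% of all guides. Between day 14 and irradiated libraries its change was -0.19 with a 95% interval from -0.48 to 0.11. Without day 0 replicate 2, edgeR also called it in both comparisons with day 0, at -0.49 and -0.67 (adjusted p = 0.0126 and 0.00102), in fits that called 16.9% and 16.8% of all guides. Without day 0 replicate 1 it was at -0.43 and -0.62 (edgeR adjusted p = 0.575 and 0.0700).

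The other Uchl5 guides did not share this. Guide 4, at the same position, had 940 and 841 CPM at day 0, 907 and 860 at day 14, and 882 and 859 after irradiation, with overlapping groups and changes of -0.01 and -0.03 against day 0. Guide 1 had changes of -0.08 and 0.09, and guide 2 of 0.11 and 0.02. The intervals of guide 4 in irradiated against day 0, from -0.23 to 0.16, and of guide 3, from -0.95 to -0.35, do not overlap. They are not adjusted for picking guide 3 as the lowest subunit guide, and the difference between guides was not tested.

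The lower level of guide 3 was also counted over its constructs. Of its 886 constructs with a day 0 mean of at least 20 reads, 79.9% were below their day 0 mean in day 14 replicate 2 and 78.6% in irradiated replicate 1, in CPM. Constructs were kept by the same day 0 reads they were compared with, so these shares are not separate evidence of a fall. For guide 4 the shares were 61.8% and 62.2%. Outside Uchl5, subunit guides ran from 37.6% (Nfrkb guide 3) to 71.1% (Ino80 guide 3) in day 14 replicate 2. The same 2 guides had the lowest and highest shares in irradiated replicate 1, at 41.5% and 70.1%. In the sparse libraries the 2 Uchl5 guides were closer, at 83.1% and 83.5% for guide 3 and 78.4% and 73.2% for guide 4. With non-targeting partners, guide 3 had unscaled totals of 1897 and 1717 reads at day 0, 467 and 915 at day 14, and 985 and 435 after irradiation. The 467 and 435 reads of the sparse libraries came from 6 and 5 of 25 constructs. Unscaled reads of constructs with 2 non-targeting guides were 51867 and 54183 at day 0, 33836 and 38087 at day 14, and 44825 and 51916 after irradiation. The other 3 Uchl5 guides lay between -0.08 and 0.11 against day 0 over all partners, so the lower total of Uchl5 is the sum of 1 low guide and 3 near 0.

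Ino80 guide 3, which supplies most of the reads of Ino80, had 2816 and 2590 CPM within its position at day 0, 2349 and 2420 at day 14, and 2365 and 2396 after irradiation. Both later groups lay below day 0. Its changes were -0.18 ± 0.06 and -0.18 ± 0.06 against day 0 (edgeR adjusted p = 0.646 and 0.789). Without day 0 replicate 2 it was at -0.24 in both, and without day 0 replicate 1 it was at -0.12 in both. Guide 4 had changes of -0.09 and -0.10, in the same direction, with 840 and 785 CPM at day 0 and between 747 and 776 later. Day 0 replicate 1 was the higher day 0 library for both guides, by 0.22 and 0.20 on the log2 scale as shares of position 2, where the median of the position 2 guides outside the low group was 0.22.

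Nfrkb guides 3 and 4 had the split values of day 0. Guide 3 had 656 and 1071 CPM at day 0, 1013 and 1108 at day 14, and 1115 and 1047 after irradiation. Guide 4 had 654 and 1044, then 1132 and 1060, then 1038 and 1026. For both guides only day 0 replicate 1 lay apart. Their changes on day 14 against day 0 were 0.30 ± 0.22 and 0.37 ± 0.21 (edgeR adjusted p = 0.646 for both), and without day 0 replicate 1 guide 3 was at -0.02. Without day 0 replicate 2 they were at 0.70 and 0.75.

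Nfrkb guides 1 and 2, at position 1, had closely matching day 0 values. Guide 1 had 571 and 584 CPM at day 0, 571 and 561 at day 14, and 618 and 680 after irradiation. Both irradiated values lay above the 4 others. Its change was 0.20 ± 0.07 in irradiated against day 14 (edgeR adjusted p = 1.00) and 0.17 ± 0.07 in irradiated against day 0 (edgeR adjusted p = 0.789). Guide 2 had changes of 0.06, 0.02 and -0.04. Uchl5 guide 1 came next in irradiated against day 14 libraries, with 0.17 ± 0.08 (edgeR adjusted p = 1.00).

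The remaining subunit guides varied within narrower limits. The 4 Actr8 guides had changes between -0.13 and -0.03 against day 0, the 4 Actr5 guides between -0.15 and 0.03, and the 3 tested Ino80c guides between -0.11 and -0.01. The guides of Actl6a and Ino80b ranged from -0.06 to 0.16 and from -0.09 to 0.14. In these 5 subunits no guide had an unadjusted p under 0.05 in any comparison.

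**Figure D4:**
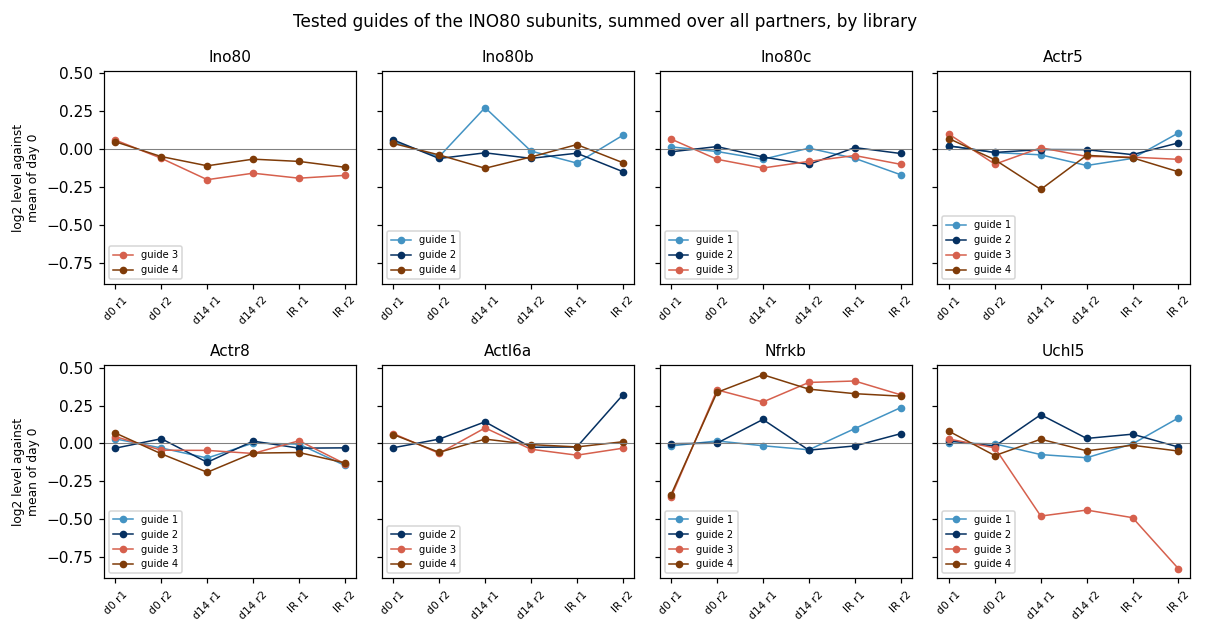
Log2 level of each tested guide, summed over all partners, against its mean log2 level in the 2 day 0 libraries (vertical axis), in the 6 libraries (horizontal axis; d0, day 0; d14, day 14; IR, irradiated). Uchl5 guide 3 lies below its other 3 guides in all 4 later libraries, and Nfrkb guides 3 and 4 lie low in day 0 replicate 1 only.

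The 28 pairs of different subunits ask whether losing both parts of 1 complex differs from the sum of losing each. The interaction is the log2 change of a pair beyond that expected from the medians of both genes over all partners. None of the 28 pairs passed the threshold (edgeR, Benjamini-Hochberg over 105111 gene pairs), against 0%, 0% and 0% of all pairs. Unadjusted p was under 0.05 for 0 of the 28 in each comparison and for 443, 372 and 874 of all pairs, and limma-trend also called 0 pairs. Each pair rested on at most 8 guide pairs, and its mean reads per library were between 63.2 and 657.5. The median half-width of the 95% interval was 2.05 for these pairs and 1.34 for all pairs.

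Interactions inside the complex lay more often above than below 0 on day 14 against day 0, 17 of 28 with a median of 0.58, and in irradiated against day 0, 19 of 28 with a median of 0.29. The medians of all pairs were 0.01 and 0.02, with 50.7% and 51.4% of them above 0. Between day 14 and irradiated libraries, 10 of 28 were above 0 with a median of -0.18. Without both sparse libraries, 11, 14 and 16 of 28 were above 0, with medians of -0.08, 0.03 and 0.04.

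Ino80 with Ino80b had the smallest p of the 28 in both comparisons with day 0. The pair had 349 and 298 reads at day 0, 1037 and 219 at day 14, and 269 and 841 after irradiation. The high values were those of the sparse libraries, where 3 of its 6 constructs had reads, against 4 and 5 at day 0, 4 in day 14 replicate 2 and 6 in irradiated replicate 1. The construct with most reads gave 53.7% to 84.6% of the pair's reads across the 6 libraries. Its interaction was 2.64 ± 1.11 on day 14 against day 0 (edgeR adjusted p = 0.969) and 1.51 ± 1.07 in irradiated against day 0. Without both sparse libraries the values were 0.19 and 0.35.

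Ino80b with Nfrkb had an interaction of 2.11 ± 1.31 on day 14 against day 0 and of -1.73 ± 1.29 in irradiated against day 14. It had 209 and 195 reads at day 0, 698 and 65 at day 14, and 147 and 291 after irradiation, and all 698 reads of day 14 replicate 1 came from 1 construct. Next by p on day 14 against day 0 came Actr8 with Ino80, at 1.01 ± 0.66. Behind Ino80 with Ino80b in irradiated against day 0, Ino80c with Uchl5 (1.35 ± 1.06) and Ino80b with Ino80c (1.05 ± 0.90) followed.

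Ino80 with Uchl5 had the smallest p of the 28 in irradiated against day 14 (edgeR adjusted p = 1.00). It had 372 and 314 reads at day 0, 403 and 161 at day 14, and 105 and 145 after irradiation, so both irradiated values were the lowest. The interaction was -1.55 ± 0.88, and -0.83 without both sparse libraries. Actr5 with Actr8, both actin-related proteins, had 0.92 ± 0.53, and 0.03 without them.

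Actr5 with Nfrkb was the one pair inside the complex that passed the threshold in any alternative fit. Its interaction in irradiated against day 0 was -0.33 ± 0.61, and without both sparse libraries it was -1.21 (edgeR adjusted p = 0.0222), in a fit with 1 irradiated and 1 day 14 library that called 1.2% of all pairs. In that fit the lone libraries are assumed to vary as the day 0 libraries do. The pair had 725 and 590 reads at day 0, 476 and 343 at day 14, and 244 and 754 after irradiation. The irradiated libraries thus lay on either side of day 0.

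**Figure D5:**
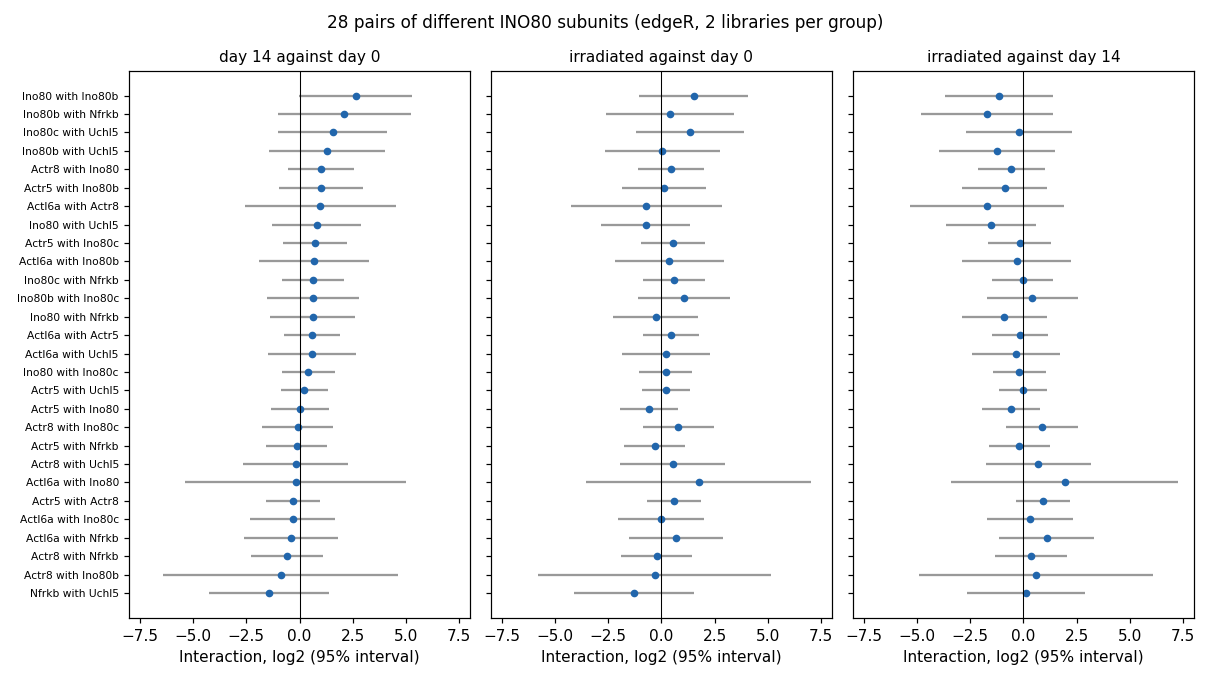
Interaction (log2, horizontal axis) of the 28 pairs of subunits with its 95% interval in the 3 comparisons, ordered by the value on day 14 against day 0. All 28 intervals hold 0 in each comparison, and Ino80 with Ino80b is highest on day 14 at 2.64.

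Constructs with both guides against the same subunit numbered 26 and held 1486 and 1746 reads at day 0, 979 and 1221 at day 14, and 1487 and 1155 after irradiation. In CPM of all reads these are 17.6 and 20.2, 15.8 and 19.96, and 20.8 and 13.3, with the lower value of each later group in its sparse library. Actr5, with 4 such constructs, had 5.21 and 5.36 CPM at day 0, 5.15 and 4.54 at day 14, and 3.71 and 8.93 after irradiation. Uchl5 had 2.49 and 2.92, then 0.61 and 2.96, then 1.94 and 0.03. These few constructs were not tested.

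Pairs of 1 subunit with a gene outside the complex numbered 3608 among those tested, and none passed the threshold (edgeR), against 0%, 0% and 0% of all pairs. Unadjusted p was under 0.05 for 20, 11 and 31 of the 3608. Of all 105111 gene pairs it was so for 443, 372 and 874 (0.421%, 0.354% and 0.832%). The pairs named next are given by rank of p only. On day 14 against day 0 the smallest p were those of Ino80b with Aptx, a DNA end-processing enzyme (2.36 ± 0.78), Actr5 with Ap5z1 (1.05 ± 0.39) and Ino80c with Ercc4, a structure-specific nuclease subunit (1.43 ± 0.54). For irradiated against day 0 they were Ino80 with Faap24, of the Fanconi anaemia core complex (1.53 ± 0.51), Ino80c with Ercc4 again (1.51 ± 0.54) and Nfrkb with Smug1, a uracil glycosylase (0.86 ± 0.33). Both Ercc4 values share the day 0 libraries. For irradiated against day 14 they were Actr5 with Usp7, a deubiquitinase (-1.72 ± 0.56), Actl6a with Msh5, a meiotic MutS homologue (2.16 ± 0.75), and Actr5 with Tonsl, a reader of new histones at forks (-1.51 ± 0.53). The edgeR adjusted p was 0.969 for the first 3 and 1.00 for the others.

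Interaction profiles, the mean of both comparisons with day 0 over 457 shared partner genes, were weakly alike at most. Ino80 was most like Shprh (Pearson r = 0.21), a helicase-like ubiquitin ligase, and then Actl6a (0.16), the one case in which a subunit was among the 2 nearest genes. Actr8 was most like Rnaseh2a (0.23) and Usp47 (0.18), Actr5 like Ccdc155 (0.18) and Kdm2a (0.16), and Ino80c like Wrnip1 (0.17) and Pclaf (0.16). Actl6a was nearest to Mpg and Ddb2 (0.17 each), Ino80b to Msh6 and Gtf2h5 (0.14 each), Nfrkb to Fancc (0.14) and Usp1 (0.13), and Uchl5 to Rpa1 and Mgme1 (0.12 each). The 28 pairs of subunits had a median r of 0.03 and all gene pairs 0.01. The points share libraries and depth, and correlations this weak in sparse counts carry no finding.

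Other members of the complex were also uncalled. Of 8 listed, 6 were in the library, and none passed the threshold in any comparison, over all partners or with non-targeting partners (edgeR). Over all partners Yy1, the transcription factor that joins the complex in animals, had the highest change of the 459 genes in irradiated against day 0, 0.45 ± 0.13 (edgeR adjusted p = 0.625), with 0.24 on day 14 against day 0 and 0.21 in irradiated against day 14. It had 1566 and 2084 CPM at day 0, 2101 and 2214 at day 14, and 2488 and 2492 after irradiation, with no overlap between the 3 groups. Day 0 replicate 1 alone was low. Without it the changes against day 0 were 0.05 at day 14 and 0.26 in irradiated libraries. Without day 0 replicate 2 they were 0.46 and 0.67, and both passed the threshold (edgeR adjusted p = 0.000477 and 0.000291), in fits that called 35.7% and 33.6% of all genes. So did its value of 0.48 in irradiated against day 0 with position 1 alone (edgeR adjusted p = 0.0147), in a fit that called 2 gene totals in that comparison. Mcrs1 had 0.21 ± 0.09 on day 14 against day 0, 0.09 without day 0 replicate 1, and 0.36 without day 0 replicate 2. Ruvbl1 and Ruvbl2, the AAA+ ATPases of the complex, are required for growth in many cell lines. Over all partners their changes were -0.03 and 0.01 on day 14 against day 0, with 95% intervals from -0.13 to 0.07 and from -0.07 to 0.10.

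No gene of the related machines was called, over all partners and with non-targeting partners (edgeR). Of the TIP60 and SRCAP complexes 5 of 18 listed genes were in the library, of other SNF2 family remodellers 9 of 22, of histone chaperones 4 of 9, of proteasome partners of Uchl5 2 of 6, and of SWI/SNF 0 of 18. Over all partners, the genes of smallest p in their lists against day 0 were the same at both times. Kat5, the TIP60 acetyltransferase, was at -0.04 and -0.12, Ercc6, a remodeller of transcription-coupled repair, at 0.12 and 0.17, Asf1a, a histone H3-H4 chaperone, at -0.11 and -0.09, and Psmd14, a proteasome deubiquitinase, at 0.06 and 0.11. For irradiated against day 14 they were Morf4l1 (0.06), Rad54l (0.09), Chaf1a (-0.08) and Sem1 (0.03). List medians over all partners on day 14 against day 0 were 0.00 for the other INO80 members, -0.02 for TIP60 and SRCAP, 0.01 for the SNF2 family, -0.06 for the chaperones and 0.03 for the proteasome genes, against 0.01 for all genes. With non-targeting partners the leading genes on day 14 against day 0 were Smarcad1 (0.42), Ssrp1 (0.39), Yy1 (0.37), Psmd14 (0.25) and Morf4l1 (0.14), each of smallest p in its list. At 0.43 ± 0.18 in irradiated against day 0, Yy1 with non-targeting partners was close to its value over all partners, and Epc2 was at 0.40, Smarcad1 at 0.21 and Sem1 at -0.28. With non-targeting partners in irradiated against day 14, the 9 SNF2 family genes had a median of -0.11 against -0.08 for all genes, and the smallest p was that of Shprh at -0.49 ± 0.19 (edgeR adjusted p = 0.965), which was -0.16 without day 14 replicate 1. Asf1a was at -0.52 ± 0.21 in irradiated against day 0 with non-targeting partners (edgeR adjusted p = 0.974), and at -0.21 without irradiated replicate 2. The other leading genes in irradiated against day 14 with non-targeting partners were Ruvbl1 (-0.24), Epc2 (0.33), Chaf1a (-0.34) and Psmd14 (-0.29).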

How the data were processed

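Guide-pair counts were deposited as whole numbers of reads, per the file headers and values, in a table per library and in a combined table; both held the same values, and 2 columns of the combined table that match no sample were not used. HISAT2 2.1.0 and hg38 are named, per the submitters' processing notes, with no role given. No guide sequence is given in the sources used here. Gene positions are those of the human genes of the same name in RefSeq GRCh38.p14, not of cut sites.

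Pairs were summed to single knockouts (a gene with non-targeting partners, scaled by constructs with 2 non-targeting guides, mean of at least 20 reads), gene totals and guides (TMM, at least 2000 reads) and gene pairs (at least 20 reads, offset from an additive fit with a prior count of 2 and 25 iterations). Each level was tested in 1 fit of all 6 libraries with edgeR 4.0.16 (quasi-likelihood, Benjamini-Hochberg over all features, threshold 0.05) in R 4.3.3; the partner-class ratio used limma 3.58.1 and the alternatives DESeq2 1.42.0. Errors after ± are SE. The scripts were tested on simulated data. All comparisons with day 0 share its libraries. Named guides and pairs are the 3 of smallest p per comparison, with the single gene of smallest p per list. Members and lists were chosen with earlier results of these data known. Same-numbered replicates did not deviate together, so numbers were not used as pairs. Between day 14 and irradiated libraries the replicate differences correlated negatively, from -0.67 to -0.54, and the main fits do not model this.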

Additional observations from a re-analysis of the deposited data

How the results depend on the processing

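The counts of all features called were 0 in each comparison (edgeR) and changed as follows, given in the order day 14 against day 0, irradiated against day 0, irradiated against day 14. Leaving out 1 replicate at a time gave 0 to 21 single knockouts on day 14 against day 0 (0 to 2 subunits); 0 to 164, 0 to 154 and 0 to 1 gene totals (0 to 3 subunits in each of the first 2); 0 to 313, 0 to 311 and 0 to 11 guides (0 to 4 subunit guides in each of the first 2); and 0 to 1 pairs in each of the last 2. Against day 0, the highest counts for totals and for guides came without day 0 replicate 2, and for single knockouts without day 14 replicate 2. Leaving out both sparse libraries called 1 and 3 single knockouts in the first 2 comparisons, and 167, 1261 and 215 pairs, 1 of them inside the complex (irradiated against day 0). DESeq2 called 2, 2 and 1 gene totals and 24, 27 and 28 guides, 1 of them a subunit guide (irradiated against day 0). Position 1 alone called 2, 2 and 8 gene totals and gave no value for Ino80, which has too few reads there. Without a filter 1 guide was called in irradiated against day 14. The cause of these differences was not tested.

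The replicate block called 1 guide and 1 pair in each of the last 2 comparisons, none of them a subunit, and changed no other call. Replicate differences of day 14 and irradiated libraries correlated at -0.54 (single knockouts), -0.67 (totals) and -0.58 (guides). A crossed replicate block, added after seeing the data, called 51 of 459 totals in irradiated against day 14. None of the 51 was a subunit, and the smallest edgeR adjusted p among the 8 was 0.372. Some values changed sign between alternatives. Nfrkb guide 3 on day 14 against day 0 was at 0.70 without day 0 replicate 2 and at -0.02 without day 0 replicate 1. Nfrkb with non-targeting partners in irradiated against day 14 was at -0.22, and at 0.26 without day 14 replicate 1. The median half-width of the 95% interval over all features was 0.40 for single knockouts, 0.14 for totals, 0.20 for guides and 1.34 for pairs.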
